A study of Mus musculus with 30 samples.

Results

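Genes of the osteoblast, the bone-forming cell, were followed through the development of the mouse nose. The list held 10 genes: Ibsp, Sp7, Alpl, Panx3, Dmp1, Mepe, Phex, Smpd3, Runx2 and Spp1. A gene was read on the transcript cluster, the set of probes along its exons, that carries its symbol alone, and where a gene has several such clusters on the one with the highest mean over all 30 arrays. By this rule 8 of the 10 genes were found, each on 1 cluster, among 14860 genes of the array. Runx2 and Spp1 were not analysed here.

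Osteoblasts arise from mesenchymal cells under the transcription factors Runx2 and Sp7 (osterix), and build a collagen matrix that they then mineralize. Alpl, the tissue-nonspecific alkaline phosphatase, removes pyrophosphate, an inhibitor of mineral. Ibsp (bone sialoprotein), Dmp1, Mepe and Spp1 (osteopontin) are acidic matrix phosphoproteins of 1 family, the SIBLING proteins. Phex is an endopeptidase of osteoblasts and osteocytes that degrades peptides of that family, Smpd3 a neutral sphingomyelinase required for bone mineralization in the mouse, and Panx3 a channel protein of osteoblasts and maturing chondrocytes. The bones around the nasal cavity form within the mesenchyme below the olfactory epithelium.

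RNA was hybridized on Mouse Exon 1.0 ST arrays, 3 for each group, and each array held RNA of a pool of at least 4 embryos of the F1 of a C57Black6 x DBA cross. The time course had 8 groups of wild type embryos: the epithelial (EPI) and the mesenchymal (MES) fraction of the olfactory placode (OPL) at E11.5, of the olfactory tissue at E12.5, which the labels call placode and the study calls olfactory epithelium, of the vomeronasal organ (VNO) at E14.5 and of the olfactory epithelium (OE) at E14.5. The other 6 arrays held tissue of Dlx5 KO embryos, called Dlx5-null here, and of wild type (WT) embryos at E12.5. The Dlx5-null embryos were homozygous for a lacZ null allele of that gene, which is not limited to a tissue. Their whole nasal epithelial lining was taken because its olfactory part could not be told from the respiratory part. The study bred its WT embryos from WT parents and its Dlx5-null embryos from heterozygous parents. Genotype, parental cross and dissection therefore cannot be told apart. The fractions were cut by hand from sections, and the authors stated that mesenchymal cells stay attached to the epithelium. In pooled tissue of this kind, fewer cells of a type and less RNA per cell cannot be told apart.

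All values are levels on the log2 scale after RMA, the authors' background correction, normalization and summary of probes. Pearson's r between arrays of a group, across clusters, lay between 0.963 and 0.990. Array medians differed between the groups of the time course: they were 6.41 to 6.44 in EPI E11.5, 6.96 to 7.06 in EPI E12.5, 6.72 to 6.76 in EPI VNO, 6.55 to 6.61 in EPI OE and 7.01 to 7.17 in the MES groups. Every test across fractions or ages was therefore also made after each array had been centred on its median. Group levels and their order are given as deposited, on a common scale that is not established. The Dlx5-null and WT arrays had medians of 8.44 to 8.61 and were compared only with each other. Background signal per probe was not used here, so no gene could be called undetected. The mean level of 14 epithelial markers was higher in EPI than in MES arrays at each age and site, without overlap. Single markers went both ways by the limma test described below. At E11.5, 4 were called higher in EPI and 1 lower, Krt5 (log2 difference -0.995), and after centring 8 and 0. At E12.5, 7 were called higher and 2 lower, Krt5 (-1.477) and Krt14 (-1.265), and after centring 8 and 2. At E14.5, however, the mean level of 15 mesenchymal markers lay at 10.68 to 10.75 in EPI VNO, against 10.43 to 10.58 in MES VNO, and at 9.93 to 10.51 in EPI OE, against 10.82 to 10.87 in MES OE. In the VNO the markers thus went against the fraction labels in part. Of the epithelial markers there, Krt14 (1.75), Fmo2 (1.57), Krt5 (1.5) and Cldn4 (1.44) were called higher and Cldn7 (-0.92) lower in EPI than in MES (log2 differences, by the limma test described below), while the mesenchymal markers Dcn (1.24) and Col6a1 (1.21) were called higher in EPI and the olfactory neuron genes Ebf2 (-1.09), Lhx2 (-0.97) and Dcx (-0.90) lower. The labels were kept as given, and every EPI and MES value of the VNO below rests on them.

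Dmp1, Ibsp and Mepe are next to each other on mouse chromosome 5, between Dspp and Spp1. Their group means in the time course ranged over 8.24 for Ibsp, 1.56 for Dmp1 and 1.58 for Mepe (log2). Over the 8 group means Pearson's r with Ibsp was 0.965 for Dmp1 and 0.0857 for Mepe. The promoter windows of these genes are shown to set those values beside the sequences. RefSeq windows of the build GRCm38.p6, from 250 bases before to 50 after a transcript start, were at hand for 5 of the 8 genes (Ibsp, Alpl, Dmp1, Mepe and Phex), 7 windows in all. Capitals mark, on either strand, the RUNX core TGTGGT, the homeodomain core TAATTA, the TATA box TATAAA and the CCAAT box CCAAT, which occurred in 16.8%, 5.29%, 13.6% and 37.4% of all 32851 windows in the table. The windows lie at chr5:104299037-104299336 (Ibsp), chr5:104197325-104197624 (the first start of Dmp1), chr5:104202367-104202666 (its second start) and chr5:104325079-104325378 (Mepe), all on the plus strand.
Ibsp: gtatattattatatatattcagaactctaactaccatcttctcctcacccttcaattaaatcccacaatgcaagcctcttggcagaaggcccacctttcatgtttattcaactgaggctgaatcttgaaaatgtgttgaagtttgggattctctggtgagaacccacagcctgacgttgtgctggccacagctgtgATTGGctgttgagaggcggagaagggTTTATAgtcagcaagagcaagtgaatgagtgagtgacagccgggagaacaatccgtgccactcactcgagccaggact
Dmp1, first start: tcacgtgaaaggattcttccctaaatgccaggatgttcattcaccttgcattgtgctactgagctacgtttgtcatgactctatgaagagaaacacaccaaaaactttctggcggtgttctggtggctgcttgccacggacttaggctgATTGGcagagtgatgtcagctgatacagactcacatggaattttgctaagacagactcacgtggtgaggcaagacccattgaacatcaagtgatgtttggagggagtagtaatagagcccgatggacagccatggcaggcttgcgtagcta
Dmp1, second start: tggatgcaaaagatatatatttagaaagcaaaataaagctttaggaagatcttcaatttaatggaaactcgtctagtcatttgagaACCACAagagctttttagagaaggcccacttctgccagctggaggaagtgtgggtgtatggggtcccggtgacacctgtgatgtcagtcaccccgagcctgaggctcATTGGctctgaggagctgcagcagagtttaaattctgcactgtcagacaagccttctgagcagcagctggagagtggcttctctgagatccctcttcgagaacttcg
Mepe: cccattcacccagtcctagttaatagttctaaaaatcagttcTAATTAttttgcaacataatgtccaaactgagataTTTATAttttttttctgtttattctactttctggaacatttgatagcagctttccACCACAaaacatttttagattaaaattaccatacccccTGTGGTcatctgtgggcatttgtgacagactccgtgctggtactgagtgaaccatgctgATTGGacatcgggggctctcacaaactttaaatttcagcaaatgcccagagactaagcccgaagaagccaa
With the first base of the transcript counted as 0, Ibsp had a reversed TATA box at -28 to -23 and a reversed CCAAT box at -54 to -50. The second window of Dmp1 had a reversed CCAAT box at a like place, -57 to -53, and a reversed RUNX core at -164 to -159. The first window of Dmp1 held only a reversed CCAAT box, at -101 to -97. Mepe had a reversed RUNX core at -118 to -113, a forward one at -80 to -75, a homeodomain core at -208 to -203, a reversed TATA box at -173 to -168 and a reversed CCAAT box at -21 to -17. None of the 4 motifs was found in the window of Phex, and of the 2 windows of Alpl only 1 held a motif, a reversed TATA box at -192 to -187. These matches describe letters in a window and no binding was measured.

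Ibsp (cluster 6933065) was the member with the widest range. Its mean lay between 3.31 and 3.85 in all 4 groups of E11.5 and E12.5, and at E14.5 it was 11.55 ± 0.05 in EPI VNO, 10.68 ± 0.08 in MES OE, 9.79 ± 0.92 in EPI OE and 7.53 ± 0.29 in MES VNO (SD, n = 3 each). The arrays of EPI OE were spread over 8.88 to 10.73 and overlapped those of MES OE, while EPI VNO lay above and MES VNO below both. The higher mean was thus that of EPI in the VNO and that of MES in the OE.

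On the values as deposited, Sp7 (6838732), Alpl (6926225), Panx3 (6994711) and Smpd3 (6985032) shared another order at E14.5. MES OE and EPI VNO were highest and overlapped, EPI OE followed, and MES VNO was lowest of these 4 groups. Array medians were 7.05 to 7.12 in MES OE and 6.72 to 6.76 in EPI VNO. The order of MES OE and EPI VNO thus rests on values not centred on those medians. For Sp7 the means were 9.15 ± 0.08 in MES OE, 9.0 ± 0.12 in EPI VNO, 8.15 ± 0.42 in EPI OE and 7.25 ± 0.24 in MES VNO, with 7.01 ± 0.07 in MES E12.5, 6.65 ± 0.13 in MES E11.5, 6.52 ± 0.88 in EPI E12.5 and 5.17 ± 0.14 in EPI E11.5. MES VNO overlapped MES E12.5 for this gene. EPI E12.5 had arrays at 6.10, 5.93 and 7.53, so that 1 array of 3 carries its wide spread. Alpl ranged over group means of 7.0 in EPI E11.5 to 10.03 in MES OE, Panx3 over 4.82 in EPI E11.5 to 9.52 in MES OE, and Smpd3 over 5.55 in EPI E11.5 to 8.64 in MES OE. Alpl and Panx3 did not separate EPI OE from MES VNO, whose arrays overlapped.

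Phex (7020407), Dmp1 (6933058) and Mepe (6933068) had narrower ranges. Phex was highest in EPI VNO at 7.48 ± 0.08, followed without overlap by MES OE at 7.28 ± 0.08, and it was the only member whose mean in EPI E11.5, 6.35 ± 0.58, lay above that of every MES group but MES OE. Dmp1 ran from 6.06 ± 0.07 in MES OE to 4.50 ± 0.35 in MES E12.5, and its 4 groups of E14.5 each overlapped the next in order. Mepe lay between 4.63 and 4.88 in 6 groups and was lower in EPI OE, 3.64 ± 0.33, and in EPI E11.5, 3.30 ± 0.38, which overlapped. Over the 8 group means, Pearson's r between 2 members ran from -0.225 to 0.988 with a median of 0.895 in 28 pairs, and the pairs with Mepe lay at 0.379 or below. These points share arrays and array medians, and the correlations are given as a description.

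**Figure D1:**
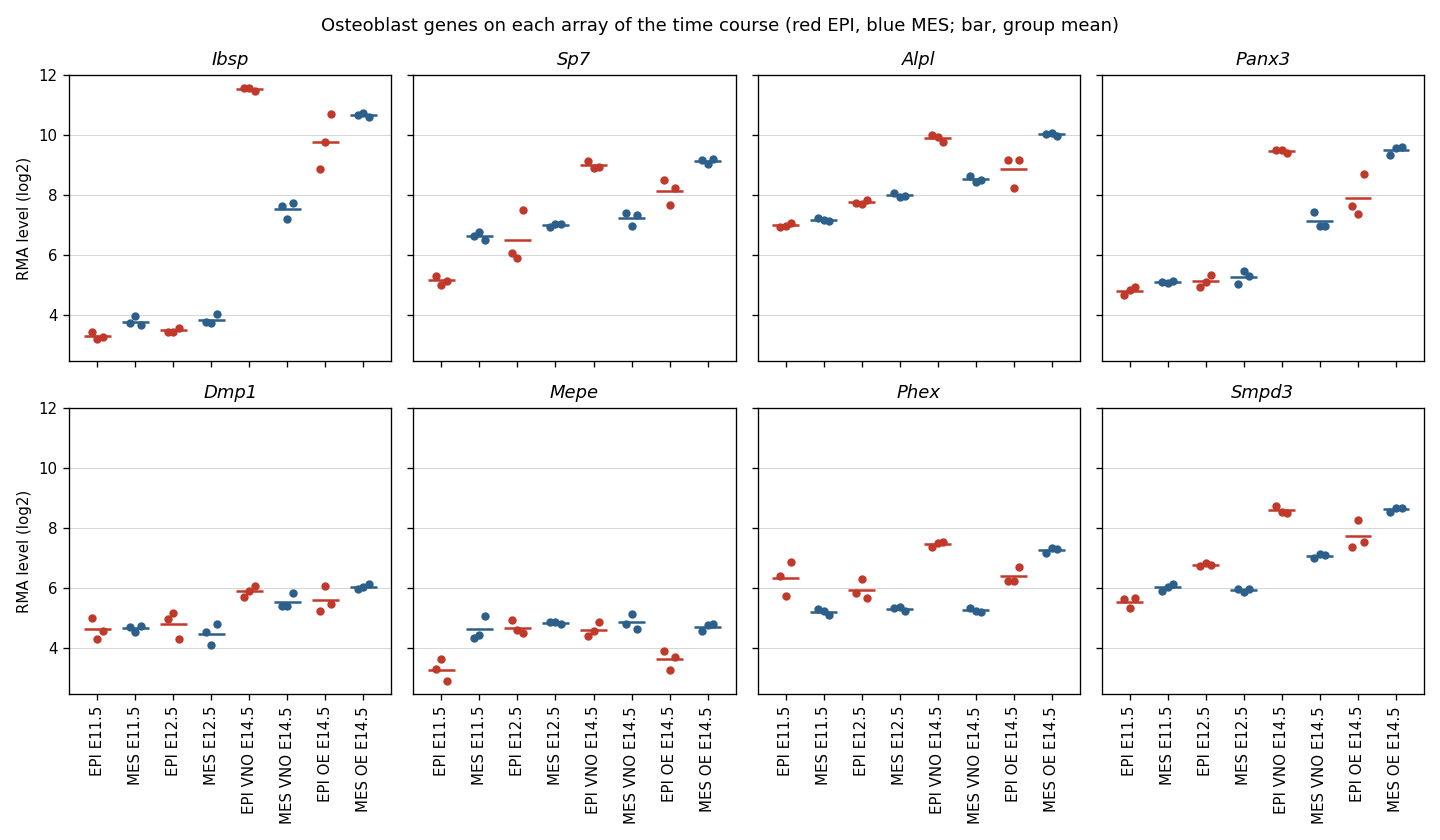
Level (RMA, log2) of the 8 osteoblast genes on each of the 24 arrays of the time course; red points are EPI, blue points MES, and bars are group means of 3 arrays. At E14.5, Ibsp, Sp7, Alpl, Panx3, Phex and Smpd3 have their highest means in EPI VNO and MES OE. Their lowest means of that age are in MES VNO. The means of Dmp1 are highest and lowest in the same groups, but the arrays of each E14.5 group overlap those of the next in order. Mepe shows no such pattern.

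By a rule of likeness, the genes whose 8 group means correlated best with those of Ibsp, among 7913 genes with a range of at least 1 on the log2 scale, were Sgms2 (r = 0.98), a sphingomyelin synthase, Mmp13 (0.98), a collagenase, Clec11a (0.98), Dlk1 (0.98) and Aldh1a1 (0.97). Those most like Sp7 were Cgref1, Srgn and Ramp1 (r = 0.99 each), Slc13a5 (0.98), a citrate transporter, and Ifitm5 (0.98), a membrane protein of osteoblasts. Each r is across 8 means that share arrays and medians, and is a description.

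In the VNO at E14.5, 6 of the 8 osteoblast genes were higher in EPI than in MES. Each pair of groups was set side by side with limma on its 6 arrays, p-values were adjusted by Benjamini-Hochberg across every cluster, and genes counted as called needed an adjusted p no higher than 0.05 and a log2 difference of 0.9 or more in size. Of all 23238 clusters tested, 2.43% were called higher, and after centring of the arrays, when the same count of 6 members was called, 7.97%. The median difference was 1.64 over the members and -0.24 over all clusters.

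Ibsp had levels of 11.57, 11.59 and 11.50 in EPI VNO, against 7.65, 7.20 and 7.74 in MES VNO. Every EPI array was thus far above every MES array, and the difference was 4.02 (SE 0.16, adjusted p = 3.27e-04), a 16.2-fold higher level in EPI. Panx3 had 9.50, 9.52 and 9.42 in EPI VNO, against 7.46, 6.98 and 7.0 in MES VNO, a difference of 2.33 (SE 0.15, adjusted p = 4.56e-04). Phex had 7.38, 7.52 and 7.53 in EPI VNO, against 5.36, 5.25 and 5.23 in MES VNO, a difference of 2.20 (SE 0.09, adjusted p = 3.29e-04). For both genes the fractions were separated by more than the whole spread of either. Sp7, the transcription factor, had 9.14, 8.91 and 8.96 in EPI VNO, against 7.43, 6.98 and 7.34 in MES VNO, and was 3.37-fold higher in EPI. Smpd3 and Alpl were 2.87-fold and 2.59-fold higher in EPI VNO, also without overlap. The matrix protein Dmp1 had 5.70, 5.93 and 6.08 in EPI VNO, against 5.42, 5.42 and 5.83 in MES VNO, and Mepe had 4.43, 4.57 and 4.89 in EPI VNO, against 4.82, 5.16 and 4.66 in MES VNO. Neither passed the test, with differences of 0.35 (95% confidence interval -0.04 to 0.74) and -0.25 (-0.69 to 0.18).

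Markers of other cells moved between the same arrays. Of 9 skeletal muscle genes measured, 7 were higher in EPI VNO, with a mean level over the list of 7.71 to 7.84 in EPI VNO, against 6.21 to 6.25 in MES VNO. The mean level of 15 genes of olfactory neurons was 8.45 to 8.51 in EPI VNO, against 8.72 to 8.99 in MES VNO, and that of 14 epithelial genes was 9.38 to 9.46 in EPI VNO, against 8.67 to 8.87 in MES VNO. Their part in the result was not tested.

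In the OE at E14.5 the fractions differed the other way. Here 5 members were lower in EPI than in MES: Panx3, Alpl, Mepe, Sp7 and Smpd3. As many as 18.5% of all clusters were also called lower, and after centring 0 members and 9.19% of clusters were, so that these calls were lost once the array medians were taken out. The median difference was -0.95 over the members and -0.33 over all clusters.

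Panx3 had 7.66, 7.39 and 8.73 in EPI OE, against 9.36, 9.59 and 9.62 in MES OE, a difference of -1.60 (SE 0.35, adjusted p = 0.0159). Alpl had 9.18, 8.25 and 9.20 in EPI OE, against 10.04, 10.08 and 9.99 in MES OE, a difference of -1.16 (SE 0.27, adjusted p = 0.0189). Neither gene overlapped between the fractions, although in each a single EPI array stood apart from the other 2. Mepe had 3.93, 3.28 and 3.72 in EPI OE, against 4.57, 4.76 and 4.80 in MES OE, a difference of -1.07 (SE 0.19, adjusted p = 0.00790). Sp7 was 1.99-fold and Smpd3 1.88-fold lower in EPI OE. Ibsp had 8.88, 9.77 and 10.73 in EPI OE, against 10.68, 10.76 and 10.61 in MES OE, and with overlapping arrays its difference of -0.89 (SE 0.44, adjusted p = 0.159) did not pass. Phex, at -0.86, and Dmp1, at -0.46, were not called either. The same 9 muscle genes had a mean level of 6.15 to 6.33 in EPI OE, against 6.21 to 6.31 in MES OE. Without replicate 3 of MES OE the count fell to 1 member and without replicate 2 of either fraction to 2, whereas it was 3 without replicate 1 of MES OE. With each of the 6 arrays left out in turn, the count ran from 1 to 6. The share of all clusters was not counted in these fits.

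**Figure D2:**
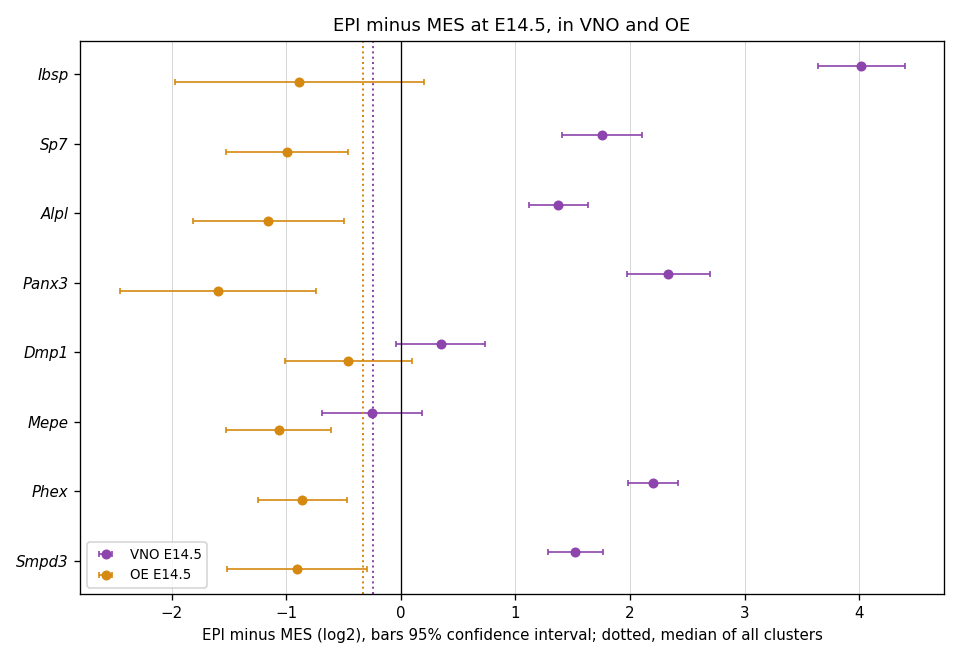
EPI minus MES difference in level (log2) of each osteoblast gene at E14.5 in the VNO (purple) and in the OE (orange), with the 95% confidence interval of limma from 6 arrays; dotted lines are the medians of all clusters, -0.24 in the VNO and -0.33 in the OE. Ibsp reaches 4.02 in the VNO and lies at -0.89 in the OE.

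Whether the fractions differed otherwise in the VNO than in the OE was tested directly, as the EPI minus MES difference in the VNO minus that in the OE, over all 12 arrays of E14.5. It was higher in the VNO for 6 of 8 members, against 1.96% of all clusters, and after centring for 6 members, against 1.08%. Ibsp gave 4.91 (SE 0.51, adjusted p = 0.00131), Panx3 3.93 (SE 0.41, adjusted p = 0.00131), Phex 3.06 (SE 0.18, adjusted p = 6.47e-05) and Sp7 2.75 (SE 0.27, adjusted p = 0.00126). Alpl and Smpd3 followed at 2.53 and 2.43. The values of Dmp1, 0.81 (95% confidence interval 0.16 to 1.45), and Mepe, 0.82 (0.22 to 1.42), did not pass the test. The median was 2.64 over the members and 0.15 over all clusters.

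Among 42 other genes of bone and mineralization, 31 were measured, and 7 of these were called higher by the same test and 0 lower. Mmp13, a collagenase of bone and cartilage, gave 4.19 (SE 0.97), Slc13a5 3.32 (SE 0.27), Ifitm5 3.09 (SE 0.17) and Ostn, which encodes the secreted peptide osteocrin, 2.40 (SE 0.33). Wif1, Pth1r and Kazald1 were the other called genes. The genes of type I collagen, Col1a1 and Col1a2, which most mesenchymal cells express, gave 0.20 and 0.45 and were not called. The median of the 31 genes was 0.43. Of 10 osteoclast genes, 3 were called higher, Atp6v0d2 (2.45), Mmp9 (1.72) and Acp5 (1.53), and of 9 skeletal muscle genes 7 were, led by Myl1 (2.62), Tnnc1 (2.39) and Myog (1.97). Chondrocyte genes had 1 higher and 2 lower calls among 18, mesenchymal genes 3 higher calls among 15, genes of olfactory neurons 1 lower call among 15, and epithelial and macrophage genes 0 calls among 14 and 13. The part of the muscle and osteoclast genes in the result was not tested.

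**Figure D3:**
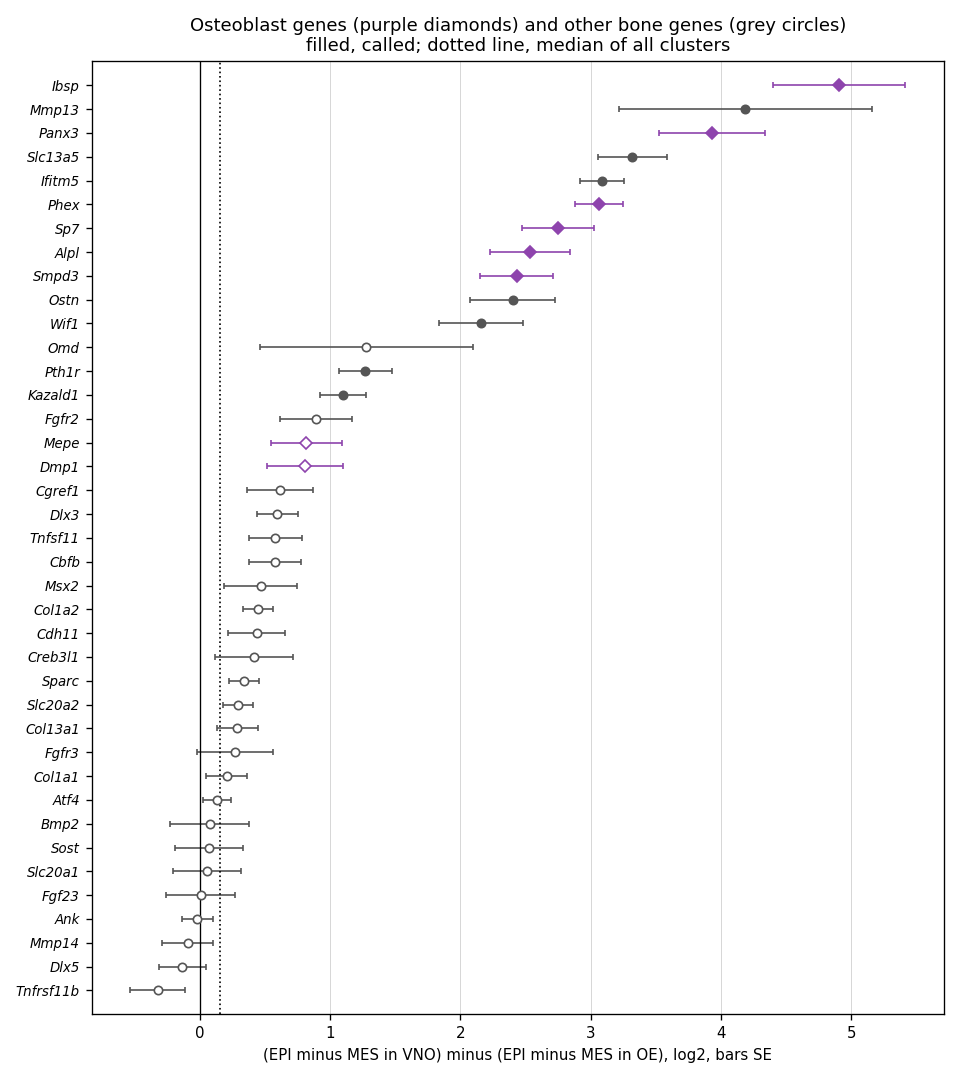
Difference (log2, bars are SE, 12 arrays) between the EPI minus MES value of the VNO and that of the OE at E14.5, for the 8 osteoblast genes (purple diamonds) and 31 other bone genes (grey circles); filled symbols passed limma's threshold and the dotted line is the median of all clusters, 0.15. Ibsp, Mmp13 and Panx3 have the highest values, at 4.91, 4.19 and 3.93.

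The sites were also compared within each fraction, on arrays that the comparisons above share. In MES, 6 members were lower in the VNO than in the OE, against 0.628% of all clusters: Ibsp, Panx3, Phex, Sp7, Smpd3 and Alpl. Ibsp, with the levels already given, was lower by a log2 difference of -3.15 (SE 0.16, adjusted p = 0.00195), or 8.87-fold, in MES VNO. Phex, at 5.36, 5.25 and 5.23 in MES VNO, against 7.18, 7.35 and 7.30 in MES OE, differed by -2.0 (SE 0.08, adjusted p = 0.00152). Panx3 (-2.37), Sp7 (-1.90), Smpd3 (-1.56) and Alpl (-1.50) were lower too. None of the 6 called genes overlapped between the sites, but the share of all clusters without overlap was not counted. Dmp1 differed by -0.50 and Mepe by 0.17, and neither was called. Among the marker lists, the osteoclast genes Acp5 (-1.08) and Atp6v0d2 (-0.97) and the mesenchymal gene Col6a1 (-1.25) were also lower in MES VNO, and the epithelial gene Ehf (0.95) and the chondrocyte gene Epyc (1.22) higher, and their part was not tested. With the replicate number as a block 0 members were called, with an adjusted p of 0.0649 for Ibsp. Of all clusters 0 were called with the block too, against 294 without it. Same-numbered arrays of these groups did not correlate above 0.1 in any pair, but this cannot exclude pairing.

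In EPI, all 8 members had a higher mean in the VNO than in the OE, but limma called 0 of them, as it called 0.215% of all clusters higher. At an unadjusted p under 0.05, 7 members and 19.8% of all clusters were higher, and Rank Products called 0 members and 0.559% of clusters in either direction. Ibsp, with 11.57, 11.59 and 11.50 in EPI VNO, against 8.88, 9.77 and 10.73 in EPI OE, did not overlap between the sites, and its difference was 1.76 (SE 0.44, adjusted p = 0.124). Phex, with 7.38, 7.52 and 7.53 in EPI VNO, against 6.25, 6.26 and 6.73 in EPI OE, came nearest to the threshold with 1.07 (SE 0.16, adjusted p = 0.0671). The arrays of Dmp1 overlapped between the sites. A single fit over all 24 arrays, which pools the spread of the 8 groups, called 5: Ibsp, Panx3, Alpl, Phex and Mepe. Without replicate 3 of EPI OE, 2 were called, Panx3 (1.96, adjusted p = 0.0372) and Phex (1.22, adjusted p = 0.0405). The share of all clusters called was not counted in these 2 fits, so their counts of members cannot be set against it.

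Over time, in EPI, all 8 members were higher in the VNO at E14.5 than in the OPL at E11.5, where 16.2% of clusters were called higher, and after centring 7, where 7.74% were. Ibsp had 11.57, 11.59 and 11.50 in EPI VNO, against 3.44, 3.21 and 3.28 in EPI E11.5, the largest difference of a member in any comparison made, 8.24 (SE 0.09, adjusted p = 2.04e-06). Panx3 differed by 4.66 (SE 0.10), Sp7 by 3.84 (SE 0.11), Smpd3 by 3.05 (SE 0.13) and Alpl by 2.91 (SE 0.10). Mepe (1.33), Dmp1 (1.27) and Phex (1.13) had the smaller differences, and Phex was the member lost on centring. In EPI OE, compared with the same E11.5 arrays, 6 members were higher, where 10.6% of clusters were, and after centring 5, where 6.78% were. Ibsp differed by 6.49 (SE 0.44), Panx3 by 3.10 (SE 0.34), Sp7 by 2.99 (SE 0.23), Smpd3 by 2.18, Alpl by 1.87 and Dmp1, the member lost on centring, by 0.97. The OE and VNO comparisons share their E11.5 arrays. Markers of other cells were higher on the same arrays: in EPI VNO against EPI E11.5, 8 of 9 skeletal muscle, 14 of 18 chondrocyte, 12 of 13 macrophage and 11 of 15 mesenchymal genes were called, with a median difference of 3.32 for the muscle genes and 2.98 for the osteoblast genes. In EPI OE the counts were 6 of 9, 15 of 18, 9 of 13 and 10 of 15. Their part in the result was not tested.

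Between E11.5 and E12.5 the EPI changed less. There 3 members, Mepe (1.38), Sp7 (1.35) and Smpd3 (1.23), were called higher at E12.5, but 18.7% of all clusters were too. The call of Sp7 was lost without replicate 3 of EPI E12.5, when its difference was 0.84, and without any 1 of the EPI E11.5 arrays. After centring the count was 0, against 1.85% of clusters. The median difference was 0.54 over the members and 0.54 over all clusters. Ibsp had 3.46, 3.45 and 3.60 in EPI E12.5, against 3.44, 3.21 and 3.28 in EPI E11.5, and did not pass the test. Between E12.5 and the OE at E14.5, 5 members were higher at E14.5 (Ibsp 6.29, Panx3 2.79, Sp7 1.64, Alpl 1.11 and Smpd3 0.95), against 2.36% of clusters, and after centring 6, with Dmp1 added, against 7.44%. Mepe was lower at E14.5, with 3.93, 3.28 and 3.72 in EPI OE, against 4.93, 4.60 and 4.50 in EPI E12.5, a difference of -1.03 (SE 0.21, adjusted p = 0.0113), where 19.3% of clusters were called lower. After centring its difference was -0.61 and was not called.

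In MES, whose array medians lay close together, 7 members were higher in the OE at E14.5 than at E11.5, all but Mepe, against 3.67% of clusters. Ibsp had 10.68, 10.76 and 10.61 in MES OE, against 3.73, 3.97 and 3.67 in MES E11.5, a 119-fold difference. Panx3 differed by 4.40 (SE 0.08), Alpl by 2.84 (SE 0.06), Smpd3 by 2.61 (SE 0.08), Sp7 by 2.50 (SE 0.09), Phex by 2.06 (SE 0.08) and Dmp1 by 1.39 (SE 0.08). The arrays of these 7 called genes did not overlap between the ages, but the share of all clusters without overlap was not counted. In MES VNO, set against the same E11.5 arrays, 4 members were higher, against 4.57% of clusters: Ibsp by 3.74 (SE 0.17), Panx3 by 2.03, Alpl by 1.35 and Smpd3 by 1.04. Phex had 5.36, 5.25 and 5.23 in MES VNO, against 5.30, 5.24 and 5.10 in MES E11.5, a difference of 0.07 (95% confidence interval -0.14 to 0.27). Sp7 (0.60) and Dmp1 (0.89) had an adjusted p below the threshold and differences below the minimum size. Of the marker lists, 12 of 14 epithelial, 12 of 15 olfactory neuron and 12 of 18 chondrocyte genes were called higher than at E11.5 in MES OE, and the counts were the same in MES VNO. Their part in the result was not tested.

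Between E11.5 and E12.5, 0 members were called in MES, where 1.02% of clusters were called higher, with 2 members and 23.2% of clusters at an unadjusted p under 0.05, and 0 members and 1.07% of clusters by Rank Products. Alpl had 8.08, 7.95 and 7.98 in MES E12.5, against 7.26, 7.17 and 7.14 in MES E11.5, and its difference of 0.81 (SE 0.06, adjusted p = 0.00233) was below the minimum size. In MES OE set against MES E12.5, 7 members were higher, all but Mepe, against 1.95% of clusters, led by Ibsp at 6.83, Panx3 at 4.24 and Smpd3 at 2.69.

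**Figure D4:**
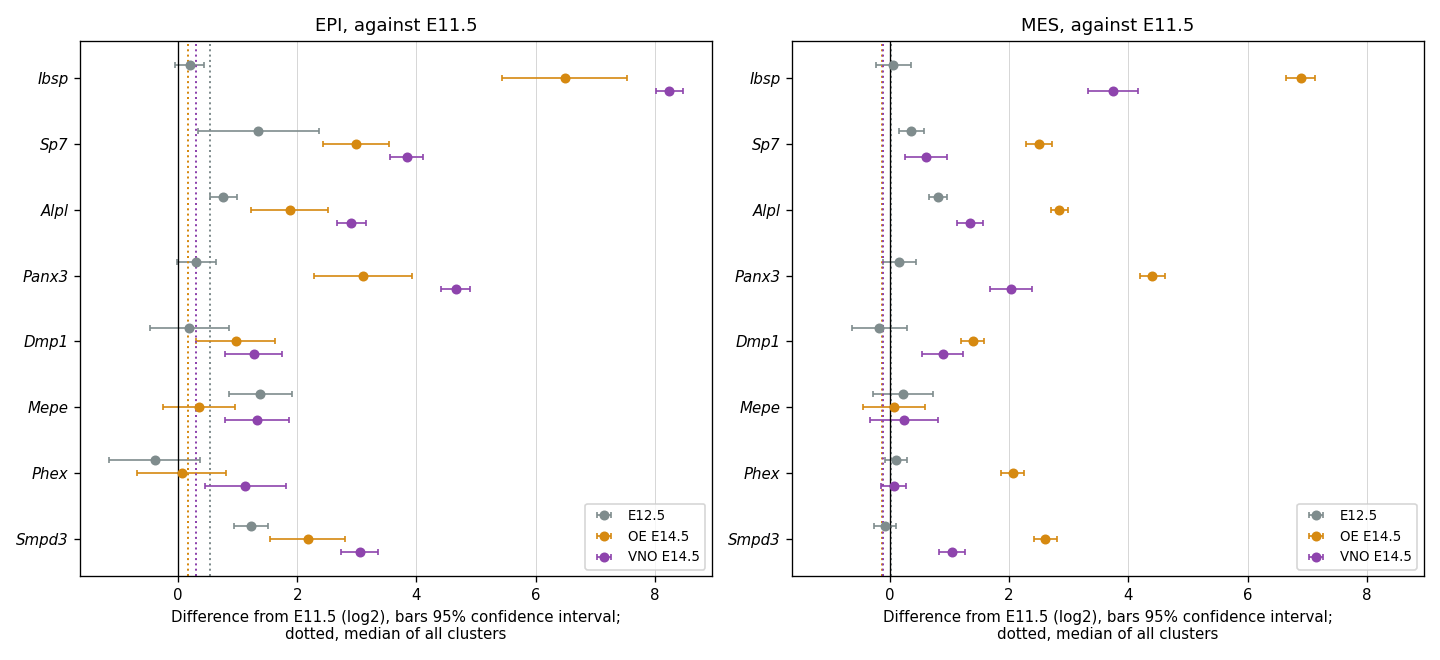
Difference in level (log2) from E11.5 of the osteoblast genes in EPI (left) and MES (right), with 95% confidence intervals of limma from 6 arrays, at E12.5 (grey), in the OE at E14.5 (orange) and in the VNO at E14.5 (purple); dotted lines are medians of all clusters. In EPI the VNO has the higher values (Ibsp 8.24 in the VNO and 6.49 in the OE), and in MES the OE does (Ibsp 3.74 in the VNO and 6.89 in the OE).

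Before E14.5, 3 members were called between the fractions at E11.5 and 0 at E12.5, with the shares of all clusters given beside them below. At E11.5, Phex was higher in EPI, with 6.41, 5.74 and 6.89 in EPI, against 5.30, 5.24 and 5.10 in MES, a difference of 1.13 (SE 0.28, adjusted p = 0.0112) where 0.714% of clusters were called higher. Its EPI arrays were spread widely but all lay above the MES arrays. After centring the difference of Phex was 1.80 and still called, with 3.53% of clusters, but without replicate 3 of EPI E11.5 it was not called. Sp7 (-1.48, SE 0.11) and Mepe (-1.34, SE 0.26) were lower in EPI at E11.5, as were 28.0% of all clusters. After centring neither was called, with 2.47% of clusters. At E12.5, 0 members were called in either direction, where 2.07% of clusters were higher and 3.53% lower in EPI, while at an unadjusted p under 0.05 there were 4 members and 48.6% of clusters, and Rank Products called 0 members and 2.25% of clusters. Smpd3, with 6.73, 6.83 and 6.77 in EPI E12.5, against 5.99, 5.88 and 5.98 in MES E12.5, differed by 0.83 (SE 0.07, adjusted p = 0.00157). After centring its difference was 0.97, and it was then the 1 member called higher, with 3.00% of clusters.

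The study's formula subtracts from each EPI array a share of the mean level of the matching MES, to account for attached mesenchyme. It was applied here to values taken back to the linear scale, a scale not given in the sources used here. Sp7 was among the genes on which its authors based that share, so its corrected level is not an independent reading. With a share of 0.15, the mean of Ibsp became 11.54 in EPI VNO, against 11.55 as deposited, and 9.20 in EPI OE, against 9.79 as deposited. Panx3 became 9.44 in EPI VNO, against 9.48 as deposited, and 6.88 in EPI OE, against 7.92 as deposited. Phex became 7.43 in EPI VNO, against 7.48 as deposited, and 5.95 in EPI OE, against 6.41 as deposited. The formula lowers an EPI level more where the matching MES level is high beside it. The larger drop in EPI OE than in EPI VNO for these genes thus follows from the levels given above.

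Dlx5 encodes a homeodomain factor of the nasal epithelium and of osteoblasts. Its own cluster had 10.24, 10.30 and 10.17 in Dlx5-null tissue, against 10.94, 11.03 and 10.98 in WT tissue. All null arrays were lower, by a difference of -0.75 (SE 0.09, adjusted p = 0.116), and which of its probes lie in the deleted part is not given in the sources used here. Of the osteoblast genes limma called 0, while of all 23332 clusters tested it called 0% higher and 0.00429% lower. Rank Products also called 0 members, and 0.750% of clusters in either direction. At an unadjusted p under 0.05, 3 members and 8.24% of all clusters were lower.

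None of these 3 genes passed the adjusted test. Smpd3 had 7.74, 8.15 and 8.27 in Dlx5-null, against 8.58, 8.85 and 8.80 in WT, a difference of -0.69 (SE 0.16, adjusted p = 0.229). Phex had 7.01, 7.04 and 7.44 in Dlx5-null, against 7.96, 7.47 and 7.55 in WT, a difference of -0.50 (SE 0.18, adjusted p = 0.325). Alpl had 10.33, 10.54 and 10.71 in Dlx5-null, against 10.81, 10.84 and 10.90 in WT, a difference of -0.32 (SE 0.12, adjusted p = 0.333). Sp7 had 6.44, 6.10 and 8.41 in Dlx5-null, against 6.30, 6.34 and 6.46 in WT, so that a single null array stood more than a log2 unit above all others. Ibsp (difference 0.02, 95% confidence interval -0.21 to 0.24), Dmp1 (0.03, -0.21 to 0.27), Mepe (-0.12, -0.39 to 0.16) and Panx3 (0.16, -0.04 to 0.36) had smaller differences. Over the same arrays the 15 mesenchymal markers had a mean level of 10.73 or more on each Dlx5-null array, against 10.43 to 10.46 in WT, and the 15 genes of olfactory neurons 9.69 to 10.55 in Dlx5-null, against 10.85 to 11.01 in WT. Their part in these differences was not tested.

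**Figure D5:**
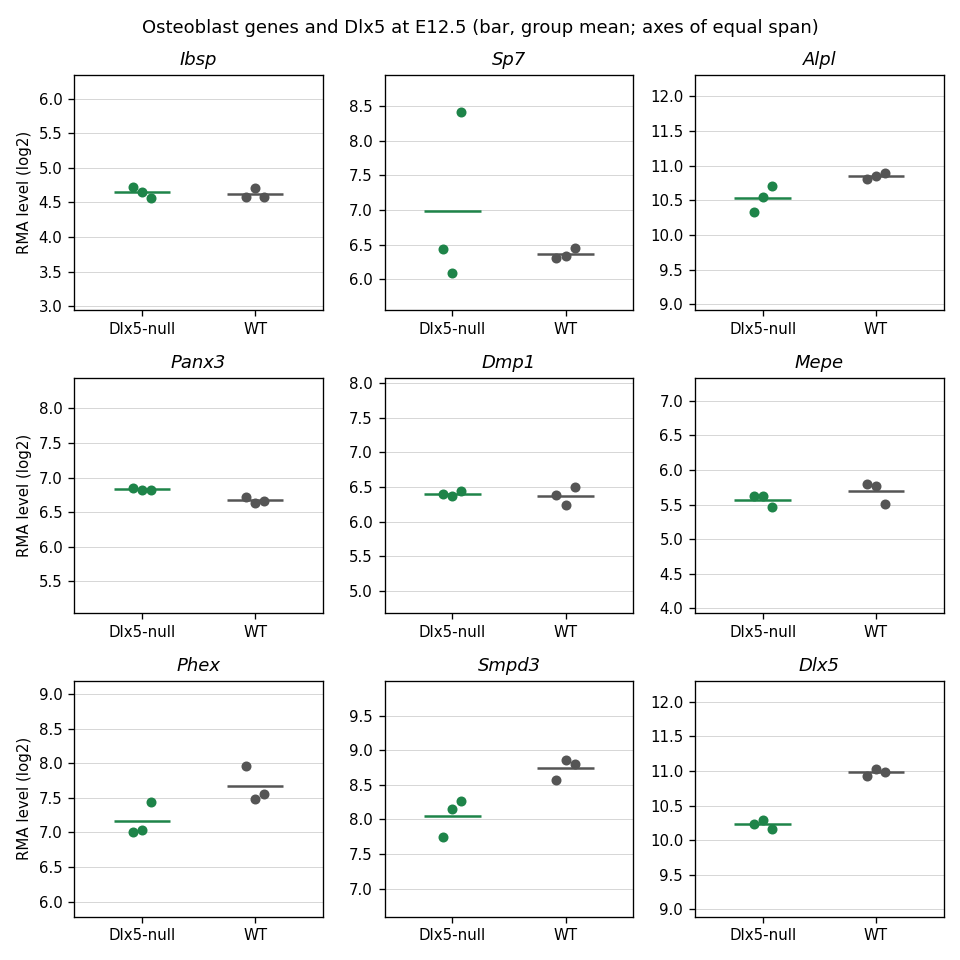
Level (RMA, log2) of the 8 osteoblast genes and of Dlx5 on the 3 Dlx5-null arrays (green) and the 3 WT arrays (grey) at E12.5; bars are group means and all axes span the same range. Smpd3 lies at 7.74 to 8.27 in Dlx5-null and 8.58 to 8.85 in WT, and 1 Dlx5-null array of Sp7 reaches 8.41.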

How the data were processed

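Mouse Exon 1.0 ST arrays were analysed, 24 of the time course and 6 of the Dlx5 experiment. The authors background-corrected, normalized and summarized the arrays with RMA, and the deposited values are on the log2 scale, 1 per transcript cluster; the submitters' notes name RMA and mm9 with no version. The methods describe a separate run for each pair of groups, but a single table was used here: 101 clusters have no value in the time course and 7 have none in the Dlx5 experiment, so the sets were taken as separately normalized. Whether the 24 time-course arrays were normalized together is not given in the sources used here. Levels, orders, correlations and the single fit across their groups therefore rest on a common scale that is not established. Gene symbols came from the platform annotation, in which 14996 of 23339 clusters carry 1 symbol and 1019 several. Precision is limited by 3 arrays per group.

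Groups were taken from the sample labels. Comparisons used limma 3.58.1 (lmFit and eBayes, two-sided) in R 4.3.3 on values as deposited, restricted to the arrays of the comparison, and p-values were adjusted by Benjamini-Hochberg across clusters. The code was tested on simulated data. An exact permutation test of 3 arrays against 3 cannot give a p below 0.1 and was not used. Dlx5-null and WT pools came from different crosses. Whether pools of the same genotype shared litters is not given in the sources used here, so the tests reflect only how these pools varied. Rank Products (100 permutations), quantile normalization, centring on array medians, no minimum fold change, clusters above the median level only, an intensity trend in the variance, a single fit over the time course, a replicate block, subtraction of the MES share and leaving out each array were the alternatives. The members, the 8 marker and bone gene lists and the settings were chosen with earlier results of these data known. All members were named, with the 5 genes most like Ibsp and the 5 most like Sp7, and 2 to 4 called genes of a list. Array replicate numbers were checked for pairing: in 0 of 15 comparisons did all 3 same-numbered pairs correlate above 0.1 (range -0.177 to 0.270). Single pairs lay above 0.1 in some comparisons, and the check cannot exclude pairing.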

Additional observations from a re-analysis of the deposited data

Results flagged for a closer look

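The EPI minus MES difference was larger in the VNO than in the OE, by limma's test of the difference itself over 12 arrays, for 6 osteoblast genes and 7 other genes of bone. On the log2 scale the values were 4.905 for Ibsp, 3.932 for Panx3, 3.062 for Phex, 2.748 for Sp7, 2.533 for Alpl and 2.431 for Smpd3. Those of the other genes were 4.187 for Mmp13, 3.319 for Slc13a5, 3.085 for Ifitm5, 2.401 for Ostn, 2.16 for Wif1, 1.27 for Pth1r and 1.097 for Kazald1. The value of Mmp13 had the widest error, an SE of 0.97. Skeletal muscle genes were called in the same direction (7 of 9), and their part was not tested.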

How the results depend on the processing

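The 6 calls in EPI VNO over MES VNO became 5 or 6 under the other settings, the 6 calls of the VNO against OE difference 5 or 6 (6 or 7 with an array left out), and no member changed direction past the threshold. Under the settings that keep all arrays, 888 results of single members kept their side of the threshold, 49 lost their call and 23 gained one. Calls lower in EPI at E11.5 numbered 0 under quantile normalization, centring, clusters above the median only and Rank Products, and 5 with no minimum fold change; the call higher was 0 above the median and 0 to 1 with an array left out. At E12.5 the calls higher were 1 with quantile normalization and with centring and 2 with no minimum fold change, and those lower were 2 with no minimum and 0 to 1 with an array left out. In the OE the calls lower in EPI were 2 with quantile normalization, 0 with centring and Rank Products and 1 to 6 with an array left out. In EPI VNO against EPI OE, 1 was called above the median, 5 in the single fit and 0 to 2 with an array left out. In EPI E12.5 against E11.5, quantile normalization, centring, clusters above the median and Rank Products each gave 0. In EPI VNO against E11.5 Rank Products gave 5. In EPI OE against E12.5, calls higher were 3 above the median, 3 by Rank Products and 2 to 4 with an array left out, and Mepe, the call lower, was 0 under these and under quantile normalization and centring, and 0 to 1 with an array left out. In MES E12.5 against E11.5, 1 was called with no minimum fold change, and in MES VNO against E11.5, 1 above the median. The replicate block gave 0 calls for MES VNO against MES OE, over the members and over all clusters. Over all clusters it gave fewer calls in 14 of 16 comparisons and more in 2. The check of replicate numbers did not establish that they pair the arrays and cannot exclude it. For most of these settings the share of all clusters called was not counted, so the counts show only how calls of members changed. The cause of these changes was not tested, except that clusters above the median leave out dim members by construction. With 1 cluster per gene, the mean of a gene's clusters gave no other value.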
